A study of Mus musculus with 35 samples.

Results

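The 83 genes described here encode the proteins of the cytosolic ribosome in mouse. They were chosen by symbol alone, as protein-coding genes named *Rpl* or *Rps* with a number, plus *Rplp0*, *Rplp1*, *Rplp2* and *Rpsa*, and without kinases such as those named *Rps6k*. Of 53465 genes listed in the bulk RNA-seq table, 83 met the rule, 51 for the large (60S) and 32 for the small (40S) subunit. A further 6 matching symbols are not annotated as protein-coding and were left out. Of the 83 genes, 78 were found in the single-cell data, and *Rpl24*, *Rpl29*, *Rps2*, *Rps4x* and *Rpl7a* were not.

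The study sorted neural, mural, endothelial and microglial cells from mouse brains at E14.5. The bulk RNA-seq covered these 4 populations, sorted together from 3 wild-type brains. Libraries are named by population (N, Mu, Ec and Mi for neural, mural, endothelial and microglial) and brain number, as in Ec-340, Ec-343 and Ec-346, and values of 3 libraries are given in that order. Single cells of 3 wild-type brains were sorted onto plates 1 to 3. The brain of each plate or well is not given in the sources used here, so a plate need not stand for 1 brain. A sort gate was recorded for the wells of these plates, except for 37 wells, which gave no cell used here. Cells labelled only as *Mof* knockout filled plates 4 to 6 without a recorded gate. *Mof* is another name of *Kat8*, a histone H4 lysine acetyltransferase. The allele and any Cre driver are not given in the sources used here. The endothelial gate took PECAM1-high, CD102-high cells, the mural gate PDGFRβ-high cells, the microglial gate cells whose wells are recorded as CD45-intermediate and CD41-positive (the study's sort description names CD11b as the positive marker and does not list CD41 for microglia), and the neural gate cells negative for every marker. Bulk neural RNA was extracted with the Qiagen mini kit and made into TruSeq libraries. The 3 other populations went through the miRNeasy Micro kit, SMART-Seq v4 amplification and Nextera XT, so that in bulk the neural population and its chemistry cannot be told apart.

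Each ribosome carries 1 copy of nearly every one of these proteins, and their mRNAs are among the most abundant in any cell. Many of these mRNAs begin with a C followed by a run of pyrimidines, the 5′ terminal oligopyrimidine motif, through which mTOR signalling controls their translation. A few genes have a second, diverged copy, and those paralogs are often restricted to particular tissues such as testis (*Rpl10l*, *Rpl39l*) or striated muscle (*Rpl3l*). In the embryonic brain, neural stem and progenitor cells are known for high ribosome production, which declines as neurons differentiate.

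The results below turn most on *Rpl38* and on *Rps27l*, a paralog of *Rps27*, and the sequences of these genes are shown first. *Rpl38* encodes a 60S protein whose loss in mouse causes skeletal patterning defects. It lies on the plus strand at chr11:114668524-114672331 (mm10), where no other annotated gene overlaps it. Its coding sequence has 213 bases, given here from its main GENCODE transcript.

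Rpl38: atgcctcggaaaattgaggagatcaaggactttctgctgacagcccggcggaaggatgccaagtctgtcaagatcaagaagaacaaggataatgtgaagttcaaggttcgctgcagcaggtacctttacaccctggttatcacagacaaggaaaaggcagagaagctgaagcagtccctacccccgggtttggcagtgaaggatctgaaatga

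*Rps27* and *Rps27l* encode paralogous 40S proteins, and *Rps27l* is a known p53 target. *Rps27* lies on the minus strand at chr3:90212522-90213651 and *Rps27l* on the plus strand at chr9:66946086-66949516. Both coding sequences have 255 bases, of which 61 differ (76.1% identity), and the longest identical run is 11 bases. The differing bases are in capitals, to show how far the copies can be told apart by their reads.

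Rps27: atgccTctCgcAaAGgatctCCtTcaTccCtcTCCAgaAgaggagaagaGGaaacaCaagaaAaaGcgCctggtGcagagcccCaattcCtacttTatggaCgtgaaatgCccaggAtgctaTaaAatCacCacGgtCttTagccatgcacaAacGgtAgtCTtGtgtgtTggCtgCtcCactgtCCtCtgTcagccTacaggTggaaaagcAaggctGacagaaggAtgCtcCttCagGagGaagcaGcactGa

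Rps27l: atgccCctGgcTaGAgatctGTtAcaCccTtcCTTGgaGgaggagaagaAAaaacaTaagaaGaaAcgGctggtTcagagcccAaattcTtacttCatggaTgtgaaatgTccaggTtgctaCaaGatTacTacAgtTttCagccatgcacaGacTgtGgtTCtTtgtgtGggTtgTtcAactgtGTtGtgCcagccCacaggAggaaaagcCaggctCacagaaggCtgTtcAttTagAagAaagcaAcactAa

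The start sites of the same genes differed in their pyrimidine runs. The windows below hold 20 bases before and 10 bases from the annotated RefSeq start (GRCm38.p6), with the run of C or T that contains the first transcribed base in capitals.

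Rpl38, chr11:114668560-114668589, plus strand: ccggaagcggaagcctcgTTCTTTCCCCgt

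Rps27, chr3:90213639-90213668, minus strand: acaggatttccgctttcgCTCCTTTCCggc

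Rps27l, chr9:66946066-66946095, plus strand: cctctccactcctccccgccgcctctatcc

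The run spans 10 bases in *Rpl38* and 9 in *Rps27*, and no run of 5 or more was marked in *Rps27l*. Of 63 members matched in the RefSeq start-site table, 20 (31.7%) had a run of at least 5 C or T over the first base, against 11.8% of 27025 gene symbols. CCGGAAG, searched on both strands, was present in 41.3% of members and 9.93% of all genes. AAGATGGC was present in 9.52% against 3.19%, and GGGCGG in 61.9% against 38.2%. These are matches of letters in windows from 250 bases before to 50 after the start, with no test.

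The members took a small share of reads in bulk and a larger one in the single cells. Bulk libraries held between 17638358 and 98414914 reads on genes, recovered as whole numbers from the normalized counts. Members took 1.63% ± 0.0354 (SD, n = 3) of reads in neural, 2.03% ± 0.178 in mural, 2.05% ± 0.378 in endothelial and 1.97% ± 0.0784 in microglial libraries. The endothelial library Ec-343 held 1.62%, against 2.33% and 2.21% in the other two endothelial libraries, and was the lowest endothelial value for 78 of the 83 genes. Mitochondrially encoded genes took 1.41% to 1.51% of neural reads and 7.93% to 22.3% of reads elsewhere. Their part in the difference of shares was not tested.

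For the single cells, unique transcripts were summed over all cells of a gate on a plate, leaving 686 wild-type cells with more than 1500 transcripts. Members took 5.85%, 5.48% and 2.71% of transcripts in the endothelial gate of plates 1, 2 and 3. The mural gate held 6.23%, 6.45% and 4.35%, and the microglial gate 6.45%, 6.82% and 4.78%. The neural gate held 5.59%, 5.28% and 3.46%. On each of the 3 plates the microglial gate was highest, and plate 3 was lowest in each of the 4 gates. On plate 3 the library titled P3_11 was read with the well records of library 12, since its file bears that number, so the microglial (6 cells) and neural (14 cells) sums of plate 3 rest on that reading. Plate 3 held 43 cells, and the repeat-rich gene *Gm10800* took from 13.3% to 28.3% of its transcripts per gate. In each gate the defining markers of its own population were detected. The 13 endothelial-gate cells of plate 3 also held 2907 mural marker CPM (counts scaled to a total of 1000000), against 105 in the endothelial gate at its lowest. In sorted bulk or summed libraries, fewer cells of a type and less RNA per cell cannot be told apart.

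**Figure D1:**
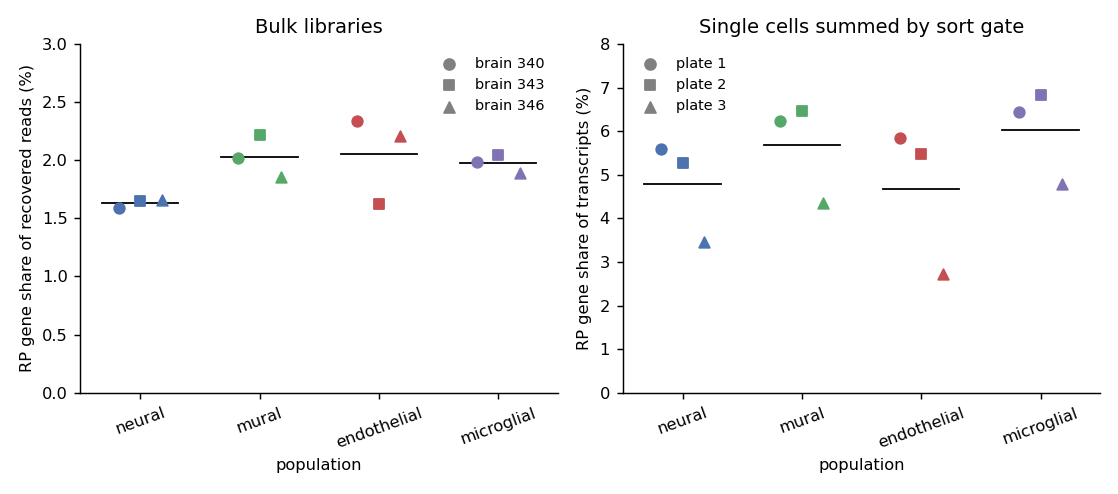
Share of reads (left, %) or of transcripts (right, %) on cytosolic ribosomal protein genes in each bulk library and in each sum of cells by sort gate and plate. Symbols mark brains or plates and bars mark means of 3. The bulk neural libraries sit between 1.59% and 1.66%, and plate 3 gives the lowest gate value in each of the 4 populations.

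Levels per kilobase of exon were compared between genes as the mean normalized count over the 12 bulk libraries. *Rpl32* (17257 per kb), *Rpl4* (16938), *Rplp1* (15710), which encodes an acidic protein of the ribosomal stalk, and *Rps15* (15503) were among the highest. The values of *Rpl32* ranged from 6537 in a neural library to 29813 in a microglial one, without correction for length. *Rpl9*, *Rps13* and *Rpl18* varied least over the 12 libraries, each with an SD of 0.20 on the log2 scale. *Rpl39l* (SD 2.76), *Rpl3l* (2.49) and *Rpl38* (1.22) varied most. The first pair are paralogs of low count, and *Rpl38* was the most variable of the main copies.

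The paralogs were below their canonical copies in mean normalized count. *Rpl10l* averaged 1.23 against 7820 for *Rpl10*, *Rpl39l* 21.8 against 1453 for *Rpl39*, and *Rpl3l* 24.4 against 12398 for *Rpl3*. *Rpl22l1* averaged 1495 against 3413, *Rps27l* 3180 against 6659, and *Rpl7l1* 3730 against 11909. These averages are not corrected for length. A few canonical genes were listed near 0 in the single cells although they were high in bulk. *Rpl35* reached at most 28.5 CPM in any gate sum against a bulk mean of 10375, *Rps12* 3.54 CPM against 3316, and *Rps27* 4.73 CPM against 6659. Gate values of these genes, and of *Rps27* beside its paralog, were therefore not compared. *Rpl39l* was listed at 86.8, 32.6 and 1.51 in endothelial and at 49.9, 21.3 and 68.0 in microglial libraries. It was listed at 0 in each mural library and at 1.34, 0 and 0 in the neural ones. Ec-343 lay within the microglial range, and Ec-346 was close to the neural values.

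Endothelial cells held more *Rpl38* than every other population in both assays. The bulk endothelial libraries had normalized counts of 13472, 8152 and 11007. Mural libraries had 2439, 3398 and 2177, and microglial libraries 2581, 2320 and 1917. Neural libraries had 1155, 1204 and 1268. The lowest endothelial value was above the highest of the 9 other libraries. By limma, *Rpl38* was lower in mural than in endothelial libraries by a log2 difference of -2.02 ± 0.21 (SE), with an adjusted p of 4.94e-05. In microglial against endothelial libraries the log2 difference was -2.24 ± 0.21 (limma, adjusted p = 1.11e-05). Across the 12 alternatives run for each of these differences it kept its call, with adjusted p-values up to 0.00753 and 0.00337.

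The same order held between sort gates, where all cells share 1 chemistry. *Rpl38* stood at 1061, 996 and 584 CPM in the endothelial gate of plates 1, 2 and 3. It stood at 496, 519 and 385 in the mural gate and at 386, 502 and 374 in the microglial gate. In the neural gate it stood at 478, 440 and 263. The endothelial values were above all 9 others, plate 3 included. By edgeR, *Rpl38* differed between the mural and endothelial gates by a log2 value of -1.11 ± 0.33 (SE; adjusted p = 0.00822). The microglial gate differed from the endothelial gate by -0.99 ± 0.33 (edgeR, adjusted p = 0.0134). Without plate 1 the adjusted p rose to 0.305 and 0.236, and without plate 2 to 0.157 and 0.149, with log2 differences of -1.01, -0.93, -1.16 and -1.04. Without plate 3 the adjusted p fell to 3.01e-06 and 2.12e-06.

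*Rpl38* was also a larger fraction of its own family in endothelial cells. It made up 1.81%, 1.82% and 2.15% of member transcripts in the endothelial gate, and 0.599% to 0.884% in the 9 other sums. In bulk it made up 1.60% to 1.85% of the members' normalized counts in endothelial and 0.287% to 0.536% in the other libraries. On knockout plate 6 the endothelial-like cells gave 1.50%, against 0.797% for mural-like cells of knockout plate 4 and 0.862% for microglia-like cells of knockout plate 5. The high endothelial fraction was thus present in cells of both genotypes.

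An annotated pseudogene, *Rpl38-ps2*, was highest in the same bulk libraries. It was listed at 2644, 1414 and 2155 in endothelial libraries and at 492 to 786 in the 9 others, and reads shared between the copies could not be separated here. Erythroid markers (8 genes) summed to 444 to 1110 CPM in bulk endothelial libraries and to 9.33 to 459 CPM elsewhere, and their part in the bulk value was not tested. In the endothelial gates 3 of the 8 erythroid genes were found, and they summed to at most 6.25 CPM.

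**Figure D2:**
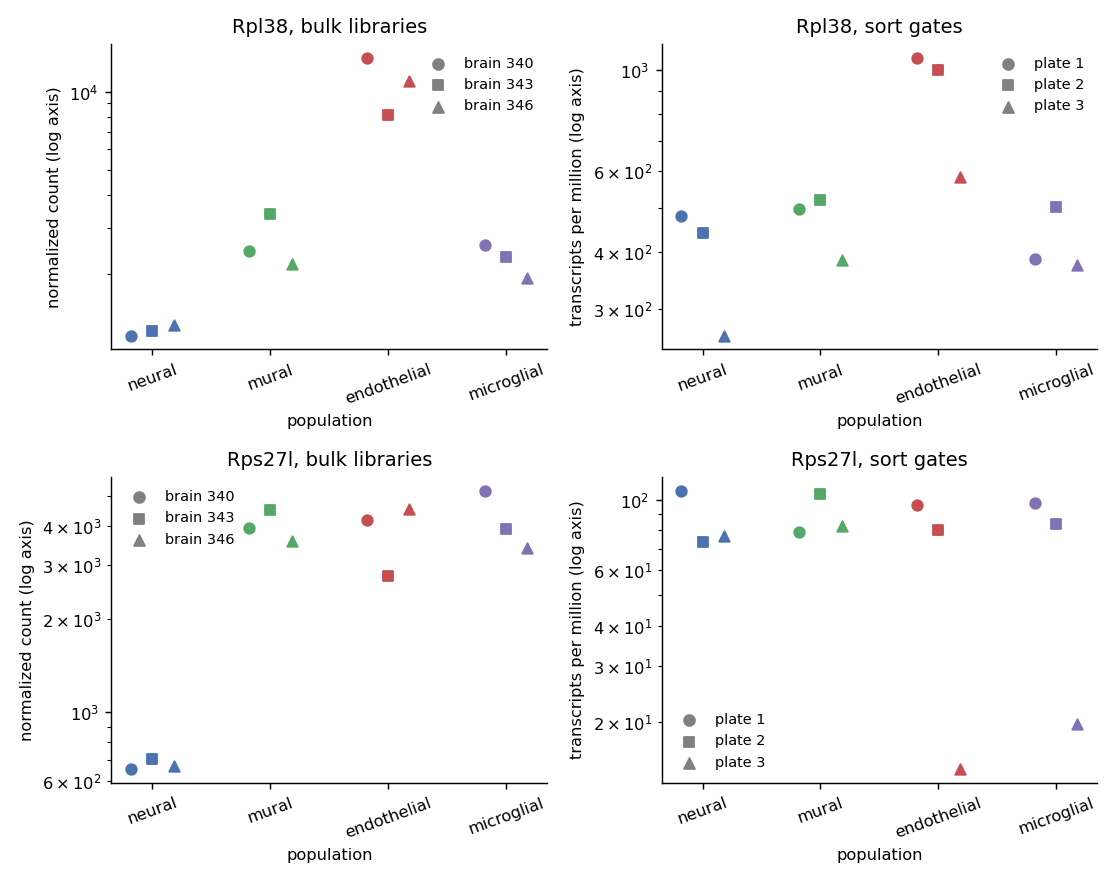
Levels of *Rpl38* (top) and *Rps27l* (bottom) in bulk libraries (left, normalized counts) and in sums by sort gate (right, CPM), all on log axes. Each point is 1 library or 1 sum, with brains or plates as symbols. *Rpl38* is highest in the endothelial points of both assays, whereas the low neural *Rps27l* of 657 to 709 appears only in bulk.

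Most members had lower normalized counts in neural libraries than in the mean of the other 3 populations. Of 82 members tested, 10 rose and 50 fell, where 32.9% of all genes tested were called higher and 31.2% lower. The median log2 difference of the members was -0.46, against 0.09 for all genes. Scaled to CPM, 18 rose and 35 fell (37.6% and 28.3% of all genes), and the median was -0.21. The median difference was similar for 60S (-0.46) and 40S members (-0.43).

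Of the called members whose groups did not overlap, *Rps27l* fell furthest. It was listed at 657, 709 and 669 in neural libraries and at 2762 to 5203 in the 9 others, with a gap between the groups. Its log2 difference was -2.54 ± 0.17 (limma, adjusted p = 4.04e-07). *Rpl35* was at 2214 to 2403 in neural libraries and at 8591 or more elsewhere, a log2 difference of -2.44. *Rps19*, which is mutated in Diamond-Blackfan anaemia, differed by -1.95, *Rpl13* by -1.83 and *Rpl38* by -1.72. The groups of each of these 5 genes were separate. *Rpl3l* (-3.60, limma, adjusted p = 0.00819) and *Rpl39l* (-2.83, limma, adjusted p = 0.0173) had larger fitted falls at low counts, with overlapping groups.

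Other members were higher in neural libraries. *Rpl23a* was listed at 3521, 3642 and 3926 in neural and at 595 to 1406 in the other libraries, a log2 difference of 1.96 ± 0.17 (limma, adjusted p = 3.30e-06). *Rpl7a* followed with 1.04, then *Rps15a* with 0.90, *Rpl22* with 0.87 and *Rps28* with 0.64. No neural value of these 5 genes overlapped a value of the other populations. *Rps12* also rose (0.57), but its neural values of 4002 to 4119 lay within the range of the others.

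No single member was called in the main fit of the neural contrast between gates, which leaves the plate out. By edgeR 0 of 71 members were called in either direction in the neural gate against the other 3, with 22.5% of all genes called higher and 17.3% lower. At an unadjusted p under 0.05 there were 3 (46.6% of all genes), and DESeq2 called 2 lower. The median was nevertheless -0.27, with 68 of 71 members below 0, against 0.04 for all genes. With the plate as a block 10 members were lower and 0 higher (18.5% and 23.7% of all genes). Without plate 3, 52 of 72 were lower and 0 higher (22.1% and 22.2%).

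*Rps27l* was at 106, 73.4 and 76.6 CPM in the neural gate and at 14.2 to 104 CPM in the 9 other sums, a log2 difference of -0.09 ± 0.26 (edgeR with TMM scaling) that turned to 0.06 with library size alone and to 0.05 with DESeq2. *Rpl23a*, the strongest bulk rise, stood at 197, 154 and 109 CPM in the neural gate and at 57.0 to 209 CPM elsewhere. The values of both genes overlapped between the neural and the other gates. Across the 71 members measured in both assays, the bulk and gate differences for the neural contrast had a Pearson's r of 0.03 (Spearman's rho 0.03). For microglial minus mural cells the same 71 members gave 0.70 and 0.70. For microglial minus endothelial cells they gave 0.61 and 0.52, and without *Rpl38* 0.46 and 0.50. For mural minus endothelial cells they gave 0.49 and 0.20, and without *Rpl38* 0.26 and 0.17. These correlations are across genes, which are not independent replicates, and each assay's differences share their own libraries. In bulk the neural difference of a member rose weakly with its exon length (Spearman's rho 0.27 over 82 members of 383 to 6270 bases).

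**Figure D3:**
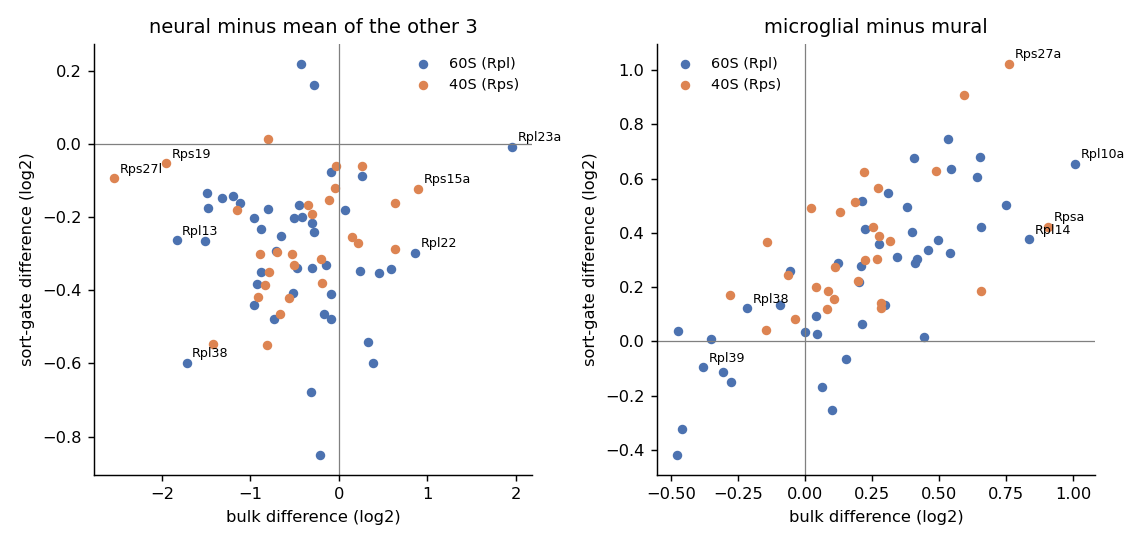
Log2 difference of each of 71 members in bulk (horizontal axis, log2 of normalized count + 1) against that between sort gates (vertical axis, edgeR log2). The left panel shows neural cells minus the mean of the other populations, with r = 0.03. The right panel shows microglial minus mural cells, with r = 0.70. Over all 82 members tested in bulk, the median of this contrast is 0.21 on the plotted scale and -0.05 in CPM.

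Mural and endothelial libraries came from the same chemistry, and few members differed. Of 82 members, 1 rose and 13 fell in mural libraries, where 13.5% of all genes were called higher and 14.3% lower. In CPM the split was 9 and 9 (18.2% and 13.1%). Without the brain of Ec-343 the counts were 0 and 26 (8.81% and 8.98% of all genes), and without Ec-343 alone they were 0 and 30 (13.3% and 13.1%). Without the brain of Ec-340 they were 2 and 3 (9.55% and 10.5%), and without that of Ec-346 0 and 7 (9.33% and 10.9%). The number of calls thus depended on single brains, and the median went from -0.12 to -0.31 without Ec-343. Neuron markers (8 genes, such as *Tubb3* and *Dcx*) summed to 2322 to 4325 CPM in mural, 729 to 900 in endothelial and 5303 to 5870 in neural libraries. Progenitor markers (8 genes, such as *Sox2* and *Fabp7*) summed to 1955 to 2199, 727 to 915 and 1239 to 1314 CPM in that order. The part of these markers' cells in the mural values was not tested.

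Among the called genes *Rpsa*, the laminin receptor gene, stood at 10567, 11106 and 8170 in mural and at 18875, 15942 and 21091 in endothelial libraries. Its log2 difference was -0.91 ± 0.16 (limma, adjusted p = 0.00143), and the groups did not overlap. *Rpl14* differed by -0.86 and *Rpl28* by -0.78. *Rpl39l* was called with -4.29 on the log2(count + 1) scale, against a mural group listed at 0. *Rpl39* was the only member higher in mural libraries, at 1514, 2092 and 1543 against 1247, 984 and 1057 (log2 difference 0.64 ± 0.18, limma, adjusted p = 0.0212). Its gate levels were 917, 957 and 577 CPM in mural and 593, 471 and 228 CPM in endothelial sums.

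Between the same gates edgeR called 0 members higher and 1 lower, *Rpl38*, of 71 tested (9.17% and 11.5% of all genes). With the plate as a block the counts were 1 and 1 (10.1% and 12.7%), and without plate 3 they were 3 and 1 of 72 (11.8% and 13.6%). *Rpl38* was the only member called lower in mural than in endothelial cells in both assays.

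Between microglial and mural cells the direction over the whole family depended on the scaling, and the share of members called higher in bulk was near that of all genes. Against mural libraries 16 of 82 members rose and 0 fell, where 20.1% and 17.9% of all genes were called. The median was 0.21 against 0.05 for all genes, but in CPM 8 rose and 14 fell (17.1% and 23.2% of all genes) and the median was -0.05, with the median of all genes at -0.10. After quantile normalization 11 rose and 3 fell (19.1% and 19.8%). Without the brain of Ec-340, 7 rose and 0 fell (16.5% and 13.7%), and without that of Ec-346, 9 and 0 (14.9% and 13.2%). In microglial libraries the neuron markers summed to 276 to 509 CPM and the progenitor markers to 273 to 323 CPM, below the mural libraries. Between gates the neuron markers summed to 206 to 522 CPM in mural and 20.7 to 39.4 CPM in microglial sums. The progenitor markers summed to 975 to 1984 and 190 to 236 CPM. Their part in this contrast was not tested.

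*Rps12* led the canonical genes, at 4733, 5856 and 3867 in microglial and 1978, 1641 and 1329 in mural libraries. It had a log2 difference of 1.54 ± 0.24 (limma, adjusted p = 0.000363). *Rpl10a* followed with 1.01 ± 0.17 (limma, adjusted p = 0.000621), *Rpsa* with 0.91 and *Rpl14* with 0.84. None of these 4 genes had overlapping groups. *Rpl39l* was called with 5.42 on the log2(count + 1) scale against the mural group listed at 0.

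*Rps27a*, which encodes ubiquitin fused to a 40S protein, was higher in microglial than in mural cells in both assays. Its normalized counts were 7641, 7764 and 6628 in microglial and 4583, 4394 and 4014 in mural libraries (log2 difference 0.76 ± 0.15, limma, adjusted p = 0.00220). Against endothelial libraries its log2 difference in bulk was 0.36 ± 0.15 and was not called (limma, adjusted p = 0.0921). It stood at 2400, 2116 and 1990 CPM in the microglial gate, against 1328, 1280 and 1236 in the mural gate. The microglial sums were also above all endothelial and neural sums, which ran from 712 to 1302 CPM. Between microglial and mural gates the log2 difference was 1.02 ± 0.33 (edgeR, adjusted p = 0.0111, and 1.66e-06 to 0.318 over 9 alternatives). Of member transcripts, *Rps27a* made up 3.66%, 3.10% and 4.16% in wild-type microglia-like cells, but 2.56% in those of knockout plate 5. That value was near the 2.49% of endothelial-like cells on knockout plate 6. Mural-like cells of knockout plate 4 gave 1.97%.

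Between the microglial and mural gates 2 members were called higher, *Rps27a* among them, and 0 were called lower, of 71 (18.9% and 18.8% of all genes). With the plate as a block 12 were higher and 0 lower (20.3% and 19.7%). Without plate 3 the counts were 18 and 0 of 72 (19.9% and 22.5%). With library size alone as the scaling, 0 members were called and the gate median went from 0.29 to 0.01, while that of all genes went from 0.01 to -0.29.

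Against endothelial libraries 4 of 82 members were higher in microglia and 2 lower, where 17% and 15.3% of all genes were called. In CPM the split was 3 and 7 (15.9% and 17.3%), and after quantile normalization 3 and 5 (16.1% and 16.8%). Without the brain of Ec-343 it was 0 and 8 (12.8% and 11.4%), and without Ec-343 alone 3 and 13 (17.7% and 15.2%). Without the brain of Ec-340 it was 0 and 1 (13.2% and 11.6%). The higher members were *Rps12* (0.84), *Rpl10a* (0.66), *Rpl7a* (0.50) and *Rpl21* (0.45), and the lower ones *Rpl38* and *Rpl28* (-0.43). With the brain as a block *Rpl21* and *Rpl28* lost their calls (limma, adjusted p = 0.0596 and 0.0738). *Rpl10a* was at 5230, 6254 and 5898 in microglial and at 3966, 2884 and 4295 in endothelial libraries. It lost its call without the brain of Ec-340 (log2 difference 0.79, limma, adjusted p = 0.0558) and without that of Ec-343 (0.43, limma, adjusted p = 0.0902), and its adjusted p ran from 0.00356 (DESeq2) to 0.0902 over 12 alternatives.

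In the gates 5 of 71 members were higher in microglial than in endothelial sums and 2 lower (17.5% and 18.7% of all genes). With the plate as a block the counts were 23 and 2 (19.1% and 20%), and without plate 3 they were 27 and 3 of 72 (19.1% and 22%). *Rps27a* (1.02), *Rpl19* (0.99), *Rpl12* (0.95) and *Rpl10a* (0.88) were among the higher ones. *Rpl10a* was at 1274, 1324 and 985 CPM in microglial and at 844, 831 and 342 CPM in endothelial sums. *Rpl10a* and *Rpl38* were called in the same direction in both assays, and no member was called in opposite directions. Without plate 1 or without plate 2, edgeR called 0 members in each of the 4 gate contrasts. In the order neural, mural minus endothelial, microglial minus endothelial and microglial minus mural, 23.5%, 9.24%, 20.1% and 22.5% of all genes were called in either direction without plate 1, and 23.2%, 8.69%, 19.9% and 22.5% without plate 2.

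Within the neural gate, neuron-like cells had a smaller share of transcripts on the members than progenitor-like cells on each plate. Few single members passed the main test, which leaves the plate out of the fit. Cells were split by 8 markers of each kind into progenitor-like cells, with *Sox2*, *Fabp7* and others, and neuron-like cells, with *Tubb3*, *Dcx* and others. Members took 4.60%, 4.63% and 3.12% of transcripts in neuron-like and 7.60%, 7.10% and 3.88% in progenitor-like cells of plates 1, 2 and 3. The progenitor-like value of plate 3 came from 2 cells. All 68 members tested had a negative log2 difference, with a median of -0.56 against 0.01 for all genes.

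By edgeR 2 of 68 were called lower and 0 higher, where 4.12% and 9.17% of all genes were called. At an unadjusted p under 0.05 there were 23, where 26.2% of all genes passed, and DESeq2 called 0. With the plate as a block 28 were lower and 0 higher (8.58% and 12.1%). Without plate 3 the counts were 41 and 0 of 70 (10.3% and 11.8%), and without plate 1 or plate 2 they were 0 and 0 (0.976% and 3.36% of all genes in either direction). *Rpl12*, whose product sits at the base of the ribosomal stalk, was at 556, 531 and 371 CPM in neuron-like and at 1155, 1137 and 984 CPM in progenitor-like cells. The groups did not overlap, and the log2 difference was -1.09 ± 0.26 (edgeR, adjusted p = 0.0148, and 6.76e-05 to 0.385 over 8 alternatives). *Rpl22l1*, the paralog of *Rpl22*, was at 165, 125 and 139 CPM against 477, 305 and 141 CPM. Its log2 difference was -1.26 ± 0.32 (edgeR, adjusted p = 0.0204), with plate 3 within the range of the neurons. *Rpsa* stood at 1144, 1161 and 680 CPM in neuron-like and at 2781, 2622 and 843 CPM in progenitor-like cells, and was not called.

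The knockout plates were compared with wild-type plates within the progenitor-like and neuron-like classes, which had at least 2 cells on each of the 6 plates. Endothelial-like cells were also found on each plate, but only 1 on plate 4 and 1 on plate 5. Over all cells of a plate, whose mix of classes differed, *Kat8* was at 16.3, 17.6 and 17.5 CPM on wild-type plates 1 to 3. On knockout plates 4 to 6 it was at 12.7, 10.4 and 11.2 CPM. In progenitor-like cells it was at 36.5, 19.8 and 0 CPM in wild type and at 5.21, 2.28 and 15.3 CPM in knockout. In neuron-like cells it was at 14.6, 32.4 and 14.9 CPM in wild type and at 0, 10.6 and 31.5 CPM in knockout. Each of these class sums held at most 11 *Kat8* transcripts. *Kat8* was not tested there, since it passed no filter in these sums. Whether the counted part of the transcript was deleted is not given in the sources used here. No plate held both genotypes.

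Members took 5.95%, 7.02% and 3.88% of transcripts in wild-type progenitor-like cells (36, 15 and 2 cells). Of these wild-type cells 31 came from the neural gate, 10 from the mural gate, 2 from the endothelial gate and 10 from wells of a PDGFRβ-medium or -low gate, whose cells enter only these wild-type classes (8 mural-like, 3 neuron-like and 10 progenitor-like). Knockout progenitor-like cells of plates 4, 5 and 6 gave 5.34%, 9.11% and 7.25% (58, 47 and 8 cells). The genotypes overlapped. By edgeR 0 of 71 members were called in either direction, where 0.0173% of all genes were called higher and 0% lower, and DESeq2 called 0. At an unadjusted p under 0.05 there were 2 (3.18% of all genes), *Rpl41* (log2 difference 0.81) and *Rpsa* (0.82). *Rpsa* was at 2154, 4197 and 3343 CPM in knockout and at 2160, 2491 and 843 CPM in wild-type cells, and these values overlapped. The median over members was 0.35 against 0.08 for all genes, with 67 of 71 above 0. With wild-type cells of the neural gate alone it was 0.25, with 0 of 70 members called. It was 0.04 without plate 5, 0.56 without plate 4, 0.59 without wild-type plate 2 and 0.18 without wild-type plate 3.

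Knockout neuron-like cells gave 6.24%, 5.10% and 5.35% (2, 64 and 29 cells), against 4.58%, 4.60% and 3.15% in wild-type ones (42, 41 and 10 cells, of which 81 were from the neural gate). The knockout shares lay above the wild-type ones, but by edgeR 0 of 71 members were called, with 0.0173% of all genes called higher and 0% lower. There were 0 members at an unadjusted p under 0.05 (2.21% of all genes), and DESeq2 called 0. The median over members was 0.21 against -0.05 for all genes, and 0.05 without plate 5. The difference between the knockout effects of both classes was called for 0 of 71 members and for 0% of 5789 genes (edgeR). At an unadjusted p under 0.05 there were 0 members and 96 genes. A fit with the plate as a block, added after the values were seen, again gave 0 members for both, with 0% of all genes called and 119 genes at an unadjusted p under 0.05, and a median SE of 0.49 on the log2 scale.

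The vascular and microglial classes had knockout cells mostly on 1 plate each, so no test was run. Mural-like cells gave 7.12% on knockout plate 4 against 6.39%, 6.47% and 4.74% in wild type, and microglia-like cells 7.64% on plate 5 against 6.49%, 6.83% and 4.78%. Endothelial-like cells gave 4.64% on plate 6, within the wild-type range of 2.60% to 5.94%.

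**Figure D4:**
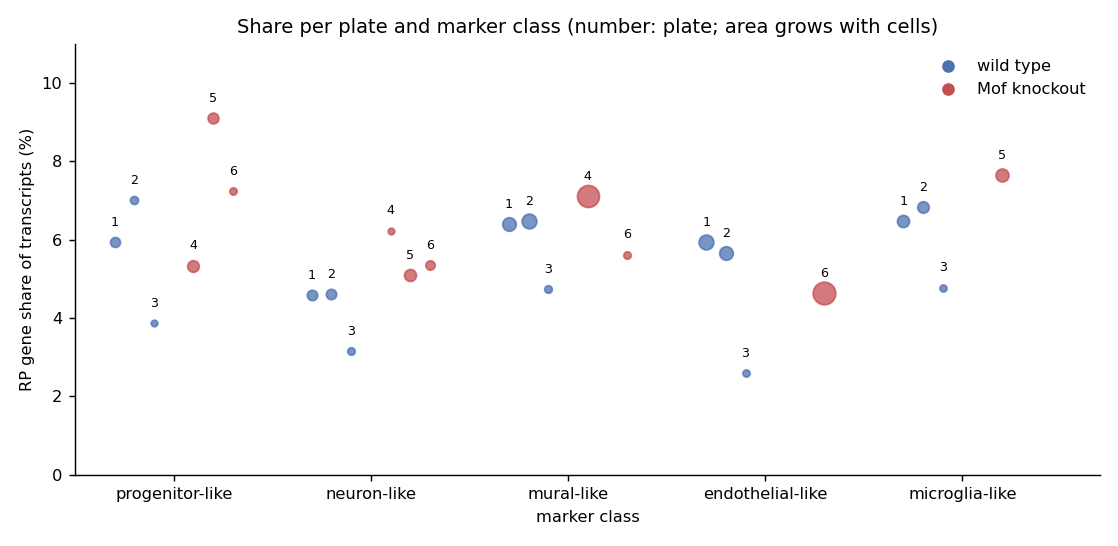
Share of transcripts on cytosolic ribosomal protein genes (%) for each plate and marker class, with plates 1 to 3 wild type and 4 to 6 *Mof* knockout. Each point is a sum over cells, its number is the plate and its area grows with the number of cells, from 2 to 288. Knockout and wild-type points overlap in progenitor-like cells, and plate 3 is the lowest point of each class.

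The related lists were described by their counts. Of 77 mitochondrial ribosomal protein genes, 2 rose and 57 fell in bulk neural libraries (median -1.13; 32.9% and 31.2% of all genes), whereas in the neural gate 7 of 75 rose and 2 fell (median 0.02; 22.5% and 17.3%). Among 40 genes for RNA polymerase I and ribosome assembly, 13 rose and 1 fell in microglial against endothelial libraries (17% and 15.3% of all genes), and 13 of 39 rose and 0 fell between the gates (17.5% and 18.7%). *Heatr1*, a processome gene needed for ribosomal RNA synthesis, rose in both, by 2.13 and 2.07 on the log2 scale. Against mural cells 20 rose and 2 fell in bulk (20.1% and 17.9%), and 12 rose and 0 fell in the gates (18.9% and 18.8%). Of the elongation factors, 1 of 6 rose between the microglial and endothelial gates, *Eef1d* (1.04), near the 17.5% of all genes. Of 28 initiation genes 6 rose and 0 fell between microglial and mural gates, led by *Eif5* (1.41), where 18.9% and 18.8% of all genes were called.

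Over the 12 bulk libraries the genes whose log2 values were most like the mean of the members were *Rps16-ps2* (Pearson's r 0.97), *Mrpl12* (0.97), *Rpl19-ps1* (0.96), *mt-Nd5* (0.96) and *Gm4366* (0.96). *Rps16-ps2* and *Rpl19-ps1* are named as pseudogenes of members and may share their reads.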

How the data were processed

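Bulk values are normalized counts, a signal per gene that the authors deposited. The submitters' processing notes name BWA 0.6.2-r126, STAR, featureCounts and DESeq2, with mm10. All 124078 values of up to 100 reads were whole within 0.01 after division by 1 factor per library. Single-cell tables deposited by the authors hold other values, identifier counts corrected for repeated identifiers, here rounded after summing. Symbols came from GENCODE (99.8% of IDs matched).

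Bulk contrasts were fitted with limma 3.58.1 (R 4.3.3) on log2(normalized count + 1) over 19765 genes with a mean of at least 10, and sums of cells over 1500 transcripts per plate and gate with edgeR 4.0.16. Brain and plate were not terms of the main fits. DESeq2 1.42.0 was an alternative. Tests were two-sided, with Benjamini-Hochberg adjustment over all genes and a threshold of 0.05. "Called" means past it, and p-values measure only the spread between these libraries or plates. Cell classes came from 8 markers each, and 86 cells lay near the class boundary. All 192 well barcodes recur between libraries by design, so they identify wells only within a library. The 4 bulk populations were sorted together from 3 brains and their titles carry 3 numbers, so same-numbered libraries were taken to share a brain, although they did not deviate together (correlations from -0.0217 to 0.0406). Gates of 1 plate did (0.143 to 0.316), so plates pair the sums. On simulated data with 3 against 3, edgeR recovered 9% of 2-fold and 56% of 4-fold changes in gate sums (8069 genes). In bulk limma recovered 88% and 100% (19765 genes). The simulated data had 1 fixed spread per assay, no plate or brain effect, and 100 changed genes per fold among the more highly expressed ones. These settings differ from those of the fits above, so the percents are not the power of those fits for the members.

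The members and the other gene lists were chosen with earlier results of these data known. Named genes are the 5 largest rises and 5 largest falls per contrast among called members whose groups do not overlap, the paralogs with their main copies, the most and least variable and the highest members, and the leading genes of each list. *Rps12* in the neural contrast, *Rpl22l1*, *Rpsa* and *Rpl41* in single cells, and *Rpl35*, *Rps12* and *Rps27* as low in single cells were named after their values were seen. Wells of 1 further gate (23 cells) entered only the wild-type class sums of the knockout comparison. Plots were drawn with matplotlib 3.10.9. Results of some named genes are not reported here.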

Additional observations from a re-analysis of the deposited data

How the results depend on the processing

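Scaling bulk libraries to CPM moved the neural median to -0.21 and the microglial minus mural median to -0.045, and gave 10 microglial minus endothelial calls. Leaving out 1 brain, or Ec-343 alone (an alternative chosen after seeing the data), gave 3 of the contrasts ranges of 5 to 30 calls (mural minus endothelial, median -0.40 to 0.0040), 1 to 16 calls (microglial minus endothelial, median -0.12 to 0.19) and 7 to 16 calls (microglial minus mural). With the brain as a replicate block the 4 bulk contrasts gave 55 calls (45 lower), 11 (10 lower), 4 (1 lower) and 14 (0 lower), in the order neural, mural minus endothelial, microglial minus endothelial and microglial minus mural, where 63.2%, 26.2%, 30.9% and 36.3% of all genes were called. Among the genes named for these contrasts, the block ended only the calls of *Rpl21* and *Rpl28* in microglial minus endothelial libraries. Taking the plate as a replicate block, the gate contrasts in the same order gave 10, 2, 25 and 12 calls, and neurons minus progenitors 28, with 42.2%, 22.8%, 39.1%, 39.996% and 20.7% of all genes called. Leaving out 1 plate gave 0 to 52, 0 to 4, 0 to 30, 0 to 18 and 0 to 41 calls, where 23.2% to 44.3%, 8.69% to 25.4%, 19.9% to 41.1%, 22.5% to 42.5% and 0.976% to 22.0% of all genes were called.

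In the neural gate DESeq2 gave 2 calls, no filter 1, cells over 3000 transcripts 3 and cells of matching marker class 3, each of them lower, where 26.1%, 21.1%, 39.2% and 41.9% of all genes were called in either direction. The microglial minus endothelial gates gave 2 calls without the filter (1 higher, 17.4% of all genes) and 3 with library size alone (1 higher, 35.6%). The microglial minus mural gates gave 0 calls with either (18.4% and 39.4%) and 1 higher with matching cells (39.0%). Neurons minus progenitors gave 0 calls with DESeq2 or without the filter (7.01% and 3.66%), and 1 lower with cells over 3000 transcripts or with library size alone (11.7% and 8.97%). The causes were not tested. Without mitochondrially encoded and 3 repeat-rich genes in the total, bulk neural libraries held 1.62% to 1.68%. The mean shares were then 2.29%, 2.60% and 2.35% in bulk mural, endothelial and microglial libraries. In the neural, mural, endothelial and microglial gates the mean shares were 6.33%, 7.36%, 6.72% and 8.04%. With pseudogenes added they were 1.71% in bulk neural and 2.10% in bulk microglial libraries. Counted over each named gene, contrast and alternative, 341 combinations kept the call and 67 lost it without changing direction. The smallest gate sum (50756 transcripts) and the smallest sum within the neural gate (14231) were on plate 3, and counting error is largest in such sums.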

Other observations

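Genes near the ribosomal protein genes in function were also described by their counts, with no test of a list. In all bulk neural counts below, the population and its library chemistry cannot be told apart. Mitochondrially encoded genes fell in bulk neural libraries for 33 of 34 tested, with 0 rises and a median log2 difference of -4.69 (31.2% of all genes fell and 32.9% rose). Between gates 1 of 15 fell and 0 rose, *mt-Nd6* (-0.72), with 17.3% and 22.5% of all genes. Of 7 p53 targets, 5 rose and 0 fell in the microglial against the mural gate, led by *Bbc3* (4.21), where 18.9% and 18.8% of all genes were called. In bulk 5 of 10 rose and 2 fell (20.1% and 17.9% of all genes), with *Bbc3* at 5.18 and *Trp53inp1* at -1.93. *Cdkn1a*, a p53 target that arrests the cell cycle, was lower in neural cells in both assays, by -3.63 in bulk and -4.09 between gates.

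Among 10 genes for growth control of ribosomal protein synthesis, 1 rose and 2 fell in microglial against endothelial libraries (17% and 15.3% of all genes), and 1 rose and 1 fell between those gates (17.5% and 18.7%). *Mycn* had the largest fall in both, by -6.07 in bulk and -5.30 between gates. In neural cells 5 of the 10 rose and 2 fell in bulk (32.9% and 31.2%), and 2 rose and 2 fell between gates (22.5% and 17.3%). *Mycl* rose most there, by 5.21 and 3.65, and *Eif4ebp1*, a translational repressor downstream of mTOR, fell most, by -4.97 and -3.46. Replication-dependent histone genes fell in bulk neural libraries for 24 of 43 and rose for 2, while in the neural gate 3 of 8 rose and 2 fell, against the same shares of all genes as above. Of 4 other cytosolic ribosome genes 3 fell in bulk neural libraries (31.2% of all genes), with *Rpl36al* at -3.78, and *Rack1* rose (0.44; 32.9% of all genes).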
